A study of Mus musculus with 2 samples.

Results

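The growth hormone (GH) and IGF axis was followed through 10 genes, Ghr, Igf1, Igf1r, Igfals, Igfbp1, Igfbp2, Igfbp3, Igfbp4, Socs2 and Stat5b, in regenerating liver of mice lacking PPARβ (PPARβ-null, KO) and of wild type (WT). The genes were taken by symbol from the 33224 gene symbols with an estimate. Each of them had 1 row of its own, and 9 of the 10 averaged an FPKM of 1 or more over both libraries (FPKM, fragment counts corrected for exon length and for the depth of the library). Across all symbols 11723 passed that filter, and they are called expressed genes here. The samples were 1 hepatic RNA library from a WT and 1 from a PPARβ-null C57BL/6 mouse or pool, which the sample labels give as 4 months old and the series description as younger. The study's text adds that the mice were male and that livers were collected 48 hr after partial hepatectomy (PH). The labels name no agent for either genotype. Livers without PH were not analysed here, so the values below are levels after PH and not responses to it. The study reports that regeneration was delayed in KO livers. Stage of regeneration and genotype therefore cannot be told apart at this time after PH. There were no replicates, no value carries an error between mice, and no test of genotype was possible.

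GH from the pituitary binds its receptor, encoded by Ghr, on hepatocytes and activates the kinase Jak2 and the transcription factor Stat5b. Stat5b then switches on Igf1, Igfals and Socs2, and Socs2 in turn damps the receptor. Most circulating IGF-1 is made in the liver and travels bound to IGF-binding proteins, either in a large complex with Igfbp3 and the acid-labile subunit encoded by Igfals, or in smaller complexes with the other binding proteins. Igfbp1 is known as a gene that insulin represses and that is induced early after PH. Hepatocytes have little of the IGF-1 receptor.

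The depth of each library was estimated from the low values of single-exon genes, which piled up at the value of 1 fragment. An FPKM of 1 on a transcript of 1 kb stood for about 56.3 fragments in WT and 55.7 in KO. The 95% intervals below are exact binomial intervals on fragments estimated in this way with the longest annotated transcript. They cover counting error only, and the spread between mice is not in them. Among expressed genes the log2 KO/WT, taken with 0.1 FPKM added to both values, had a median of -0.24, and 75.6% of them were lower in KO, so a gene with equal FPKM in both libraries stood above the typical gene. All 7 hepatocyte markers checked were abundant, from 172 FPKM (Hnf4a, in a row that the authors' program marked FAIL) upwards in WT. Ppard, the targeted gene, had 2.67 FPKM in WT and 2.42 FPKM in KO, a KO/WT ratio of 0.906 (95% interval 0.793 to 1.03). This locus value therefore does not check the labels, and the deleted part of the gene is not given in the sources used here.

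The levels of the 10 genes spanned from abundant to barely detected mRNA in both libraries. FPKM is scaled to length, so these levels can be set beside each other. In WT the order from high to low was Igfbp4, Igf1, Igfbp2, Igfbp1, Ghr, Igfals, Stat5b, Igfbp3, Socs2 and Igf1r. In KO the order differed at a single gene, Igfbp1, which stood at rank 2 and not at rank 4, with Igf1 and Igfbp2 each moved 1 place down. Igfbp1 and Ghr were neighbours in WT, at 108 and 96.4 FPKM, and lay apart in KO, at 360.4 and 111 FPKM. Igfbp3 and Socs2 were close in both libraries, at 2.76 and 2.26 FPKM in WT and at 1.72 and 1.41 FPKM in KO.

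**Figure D1:**
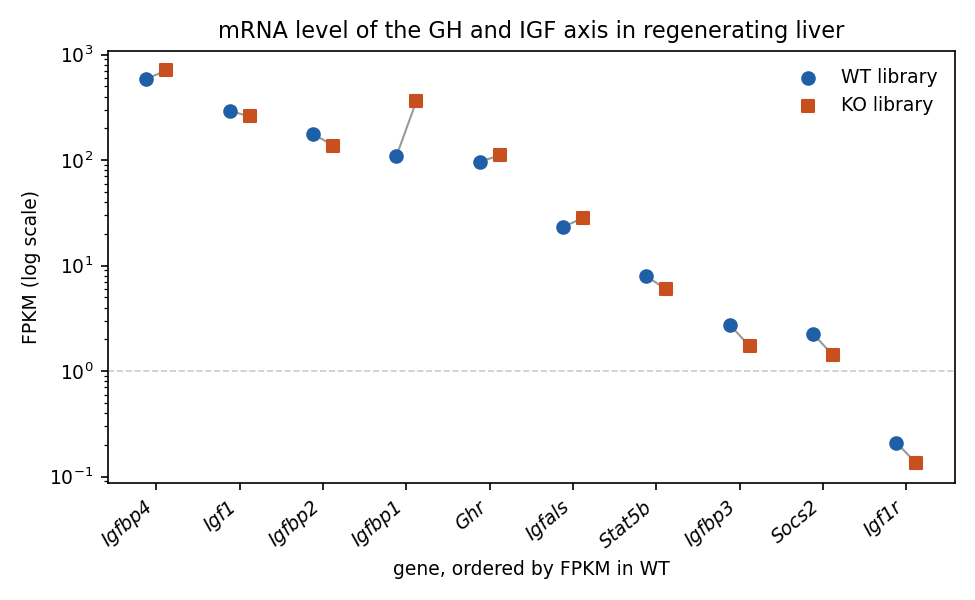
FPKM (log axis) of the 10 axis genes in the WT library (circles) and the KO library (squares), with 1 library per genotype and genes ordered by their WT level; the dashed line marks an FPKM of 1. Igfbp1 is the only gene whose symbols lie over 2-fold apart, at 108 and 360.4 FPKM, and only Igf1r lies under the dashed line.

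Igfbp1, which encodes a small secreted IGF-binding protein whose level follows insulin and stress, had 108 FPKM in WT and 360.4 in KO. The KO level was 3.33-fold higher (95% interval 3.25 to 3.41). Its log2 KO/WT was 1.73, and 0.478% of expressed genes, Igfbp1 itself included, had a value as high or higher. Igfbp1 was the only axis gene past 2-fold in the direction of higher in KO, 1 of the 9 that passed the filter. Of expressed genes, 1.71% were past 2-fold in that direction. None of the 9 was past 2-fold lower in KO, where the share over expressed genes was 8.23%. The gene is annotated on chromosome 11 at 7097785 to 7102549, plus strand (NCBIM37, the build of the deposited loci), with a single annotated transcript of 1525 nt, and the deposited locus has the same ends. No other annotated gene overlaps it.

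The neighbour of Igfbp1 is its paralog Igfbp3, from 7106089 to 7113926 on the minus strand, so that the 3' ends of the genes face each other across 3539 bases. Igfbp3 encodes the main carrier of IGF-1 in blood, which forms the large complex. Its FPKM was 2.76 in WT and 1.72 in KO, or 1.61-fold lower in KO (95% interval 1.36 to 1.90), on about 377 and 232 fragments. Thus of the adjacent genes one was higher and the other lower in KO, under each of the scalings tried. The ratio of Igfbp1 to Igfbp3 within a library, which no scaling between libraries can change, was 39.2 in WT and 209.6 in KO.

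The promoter bases of both genes are shown because Igfbp1 was the axis gene with the largest difference and Igfbp3 its neighbour. They are the 250 bases before the RefSeq start on GRCm38.p6, a later build than that of the deposited loci, for Igfbp1 on the plus strand at chr11:7197537-7197786 and for Igfbp3 on the minus strand at chr11:7213924-7214173. Capitals mark CAAAACA, a core bound by FoxO factors in the insulin response element known from the Igfbp1 promoter. This motif was added to the search after the sequence was seen.
Igfbp1: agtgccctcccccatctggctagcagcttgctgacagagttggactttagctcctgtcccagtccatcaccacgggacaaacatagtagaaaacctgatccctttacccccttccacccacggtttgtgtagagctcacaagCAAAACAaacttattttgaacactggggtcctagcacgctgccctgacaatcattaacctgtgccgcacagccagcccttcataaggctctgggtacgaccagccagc
Igfbp3: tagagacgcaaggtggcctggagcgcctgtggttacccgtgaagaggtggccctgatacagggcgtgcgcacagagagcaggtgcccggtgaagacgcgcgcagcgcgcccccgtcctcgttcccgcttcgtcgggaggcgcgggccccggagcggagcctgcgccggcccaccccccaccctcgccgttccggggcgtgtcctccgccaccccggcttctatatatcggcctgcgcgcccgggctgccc
The Igfbp1 stretch had a GC content of 53.2% and the Igfbp3 stretch of 73.2%. CAAAACA lay at -108 to -102 relative to the start of Igfbp1. Read on both strands, it was in 6.28% of the 32851 promoter windows of RefSeq, each of which runs from 250 bases before to 50 after a start. Windows were found for 9 of the 10 genes, 14 windows in all, and that of Igfbp1 was the only one with CAAAACA. Socs2 was the gene without a window, so its promoter was not searched for any of the motifs. The core TTCNNNGAA, which STAT5 proteins bind, was found in 1 gene, Igfals, as TTCTCAGAA in one window and TTCCTAGAA in another, against 8.3% of all windows. GTAAACA, another core of FoxO factors, was also found in a window of Igfals alone, against 3.65% of all windows. A match describes these letters and is not evidence of binding, and none of these windows was measured here.

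The other abundant binding proteins differed less. Igfbp4, which binds IGFs and holds them from the receptor, had 587 FPKM in WT and 709 FPKM in KO, 1.21-fold higher in KO (95% interval 1.19 to 1.22). Igfbp2, the main binding protein of fetal liver, had 178 FPKM in WT and 137 in KO, a KO/WT ratio of 0.771 (95% interval 0.751 to 0.791). Of expressed genes, 65.7% had a higher log2 KO/WT than Igfbp2 and 8.97% a higher one than Igfbp4. The sum over Igfbp1 to Igfbp7, of which the last 3 are no members of the axis set, was 923 FPKM in WT and 1238 in KO. Without Igfbp1 it was 815 in WT and 877 in KO.

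Within this pool the share of Igfbp1 was 11.7% in WT and 29.1% in KO. The share of Igfbp4 was 63.6% in WT and 57.3% in KO, and that of Igfbp2 was 19.3% in WT and 11.1% in KO. Igfbp7, a binding protein of low affinity for IGFs that vascular cells express, made up 4.74% in WT and 2.33% in KO. Igfbp3, Igfbp5 and Igfbp6 each stayed under 1% in both libraries. Per Igfbp2 the level of Igfbp1 was 0.609 in WT and 2.63 in KO, so the order of the pair differed between the libraries.

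**Figure D2:**
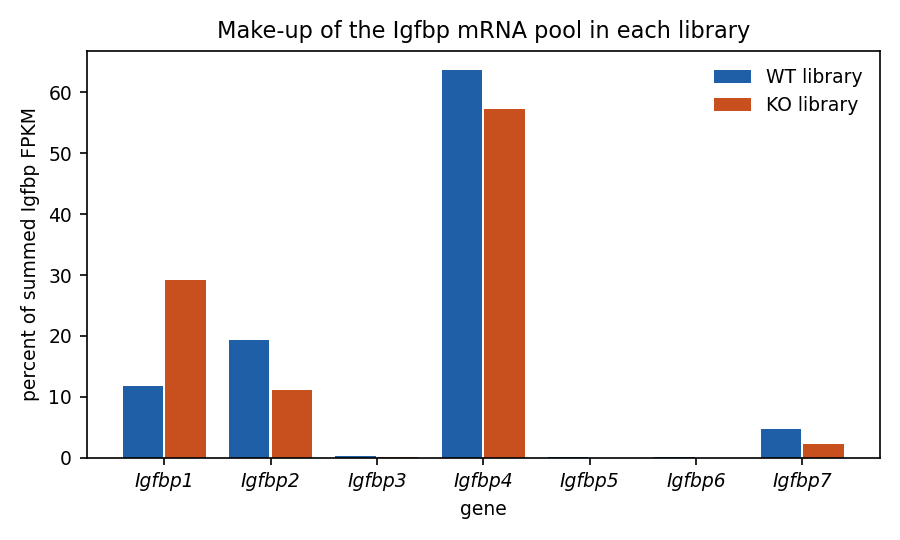
Percent of the summed FPKM of Igfbp1 to Igfbp7 that each gene took in the WT library and the KO library, with 1 library per genotype and bars from 0. Igfbp4 has the tallest bar in both libraries, and the bar of Igfbp1 stands at 11.7% in WT and 29.1% in KO.

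Igf1, the ligand, differed little between the libraries. Its FPKM was 292 in WT and 260.2 in KO, 1.12-fold lower in KO (95% interval 1.11 to 1.13), and 58.5% of expressed genes had a lower log2 KO/WT. Its log2 KO/WT of -0.17 turned to 0.07 after centring on the median gene and to 0.04 with equal upper quartiles, so its direction depends on the scaling. The ratio of Igfbp1 to Igf1, both as FPKM, was 0.371 in WT and 1.39 in KO, a 3.74-fold difference. The deposited Igf1 locus on chromosome 10 starts 31888 bases before the annotated gene (87321010 to 87399792, plus strand) and also covers the annotated gene Gm16176. Isoforms of Igf1 were not analysed here. Igf2, the ligand of fetal life, was near the limit, with 0.114 FPKM in WT and 0.0750 FPKM in KO, on about 30 and 20 fragments.

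Igfals, the acid-labile subunit that holds IGF-1 and Igfbp3 in the large complex, had 23.2 FPKM in WT and 28.3 in KO, 1.22-fold higher in KO (95% interval 1.17 to 1.28). Its partner Igfbp3 was lower in KO, and the ratio of Igfals to Igfbp3 was 8.39 in WT and 16.4 in KO. Igfals lies on chromosome 17 from 25014600 to 25018955, on the same chromosome as Ppard and 3.35 Mb away from it.

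Igfbp3 is described in Kupffer and endothelial cells of the liver rather than in hepatocytes. Most markers of these cells were also lower in KO, as were 75.6% of expressed genes. Of 9 Kupffer cell and macrophage markers 8 were lower in KO, and their summed FPKM was 77.6 in WT and 45.4 in KO, with Clec4f at 17.3 and 10.6 FPKM. Of 9 endothelial markers 8 were lower, with sums of 77.6 and 61.4 FPKM, and Tek was level at 1.80 and 1.81 FPKM. All 7 stellate cell and fibroblast markers were lower as well, with sums of 93.3 and 61.2 FPKM, whereas 5 of 7 hepatocyte markers were higher in KO. The exceptions among the latter were Ttr and Cps1, and Cps1, the entry enzyme of the urea cycle, had 1597 FPKM in WT and 743 in KO. Set against the median gene rather than 0, 7 of the 9 Kupffer cell, 5 of the 9 endothelial, 6 of the 7 stellate cell and 1 of the 7 hepatocyte markers lay below it. None of the markers of these lists was at 0 in a library. Their part in the values of Igfbp3 was not tested, and in bulk liver fewer cells of a type cannot be told apart from less RNA per cell.

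The receptors and the signal transducer of the axis lay within 2-fold. Ghr had 96.4 FPKM in WT and 111 FPKM in KO, 1.15-fold higher in KO (95% interval 1.13 to 1.17), and 11.3% of expressed genes had a higher log2 KO/WT. Stat5b had 7.92 FPKM in WT and 5.97 in KO, 1.33-fold lower in KO (95% interval 1.25 to 1.41). Igf1r, the receptor through which IGF-1 acts, was barely expressed, with 0.210 FPKM in WT and 0.134 FPKM in KO on about 49 and 31 fragments. The KO/WT ratio of Igf1r was 0.640 with a 95% interval from 0.394 to 1.02, so a difference was not detectable at this depth. The insulin receptor gene Insr, by comparison, had 12.5 FPKM in WT and 12.2 in KO, which is 59.8 times the level of Igf1r in WT and 90.9 times in KO.

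Socs2, the feedback inhibitor that Stat5b induces, had 2.26 FPKM in WT and 1.41 FPKM in KO, a KO/WT ratio of 0.625 (95% interval 0.545 to 0.719), on about 540 and 335 fragments. With the shortest coding transcript in place of the longest, a choice added after the data were seen, the interval widened to 0.408 to 0.946. This wider interval still lay under 1 but included the ratio of the median gene, whose log2 KO/WT was -0.24. Cish and Socs3, relatives of Socs2 in the same family of inhibitors, stood in the other direction. Cish, also a STAT5 target, had 2.85 FPKM in WT and 5.61 in KO, and Socs3, which STAT3 induces after cytokines, had 9.62 in WT and 18.6 in KO. Their KO levels were 1.97-fold (95% interval 1.80 to 2.15) and 1.93-fold (95% interval 1.81 to 2.06) higher. The ratio of Cish to Socs2 was 1.26 in WT and 3.97 in KO, and that of Socs3 to Socs2 was 4.25 in WT and 13.1 in KO, and Socs2 stayed lower and the other two higher in KO under the scalings tried. With equal upper quartiles or centring, Cish and Socs3 were the 2 genes of GH receptor signalling past 2-fold higher in KO, where 2.54% and 2.67% of the genes past the filter under that scaling were.

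**Figure D3:**
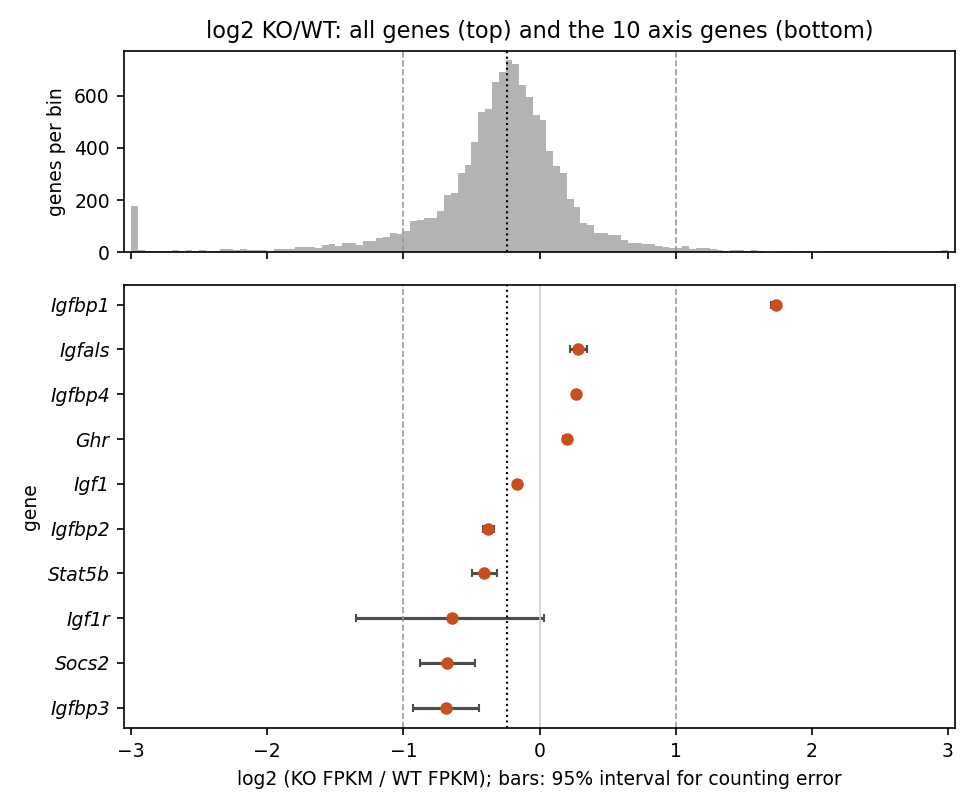
Top, log2 KO/WT of FPKM + 0.1 over the 11723 expressed genes, with values past the axis ends drawn in the outermost bins; bottom, log2 of the FPKM ratio of the 10 axis genes with 95% intervals for counting error only. Dashed lines mark 2-fold and the dotted line the median gene at -0.24; Igfbp1 at 1.73 lies past the right line, and Igf1r has the widest interval.

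At a threshold of 1.5-fold on the log2 scale with the pseudocount, Igfbp3 and Socs2 were the 2 of 9 axis genes past it in the direction of lower in KO, where 19.1% of expressed genes were. Igfbp1 was then still the 1 gene past it in the direction of higher, where 3.99% of expressed genes were. At 3-fold it remained, against 0.546% of expressed genes, and none was lower, against 3.8%. Over the 9 genes the log2 KO/WT had a median of -0.17, beside -0.24 for all genes, with 4 of the 9 higher and 5 lower in KO. With equal sums of FPKM, equal upper quartiles and centring, Igfbp1 was again the 1 axis gene past 2-fold higher in KO, against 1.81%, 2.54% and 2.67% of the genes past the filter. None was past 2-fold lower, against 7.83%, 6.09% and 5.8%.

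**Figure D4:**
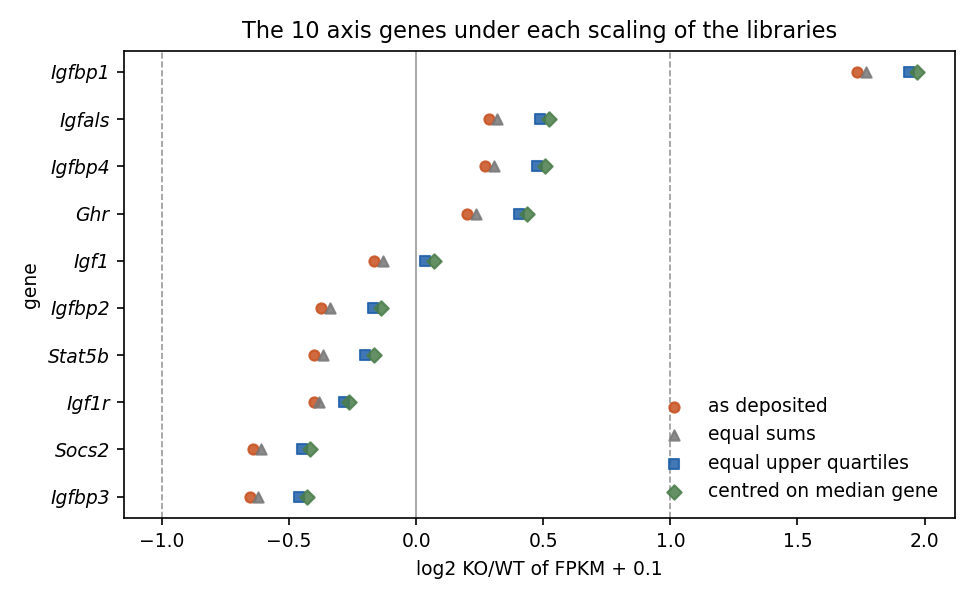
Log2 KO/WT of FPKM + 0.1 for the 10 axis genes with the FPKM as deposited (circles), with equal sums of FPKM (triangles), with equal upper quartiles (squares) and centred on the median gene (diamonds); dashed lines mark 2-fold. Igf1 is the only gene whose symbols fall on both sides of 0, from -0.17 to 0.07, and Igfbp1 stays past 2-fold, from 1.73 to 1.97.

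Of 13 other genes of GH receptor signalling 12 passed the filter, and their log2 KO/WT had a median of -0.11, with 8 lower and 4 higher in KO. Centring turned this median to 0.13. The 3 with the highest mean FPKM were Stat3, Ptpn11 and Socs3. Stat3, the transcription factor of IL-6 signalling that GH also activates, had 55.3 FPKM in WT and 50.9 FPKM in KO. Ptpn11, the phosphatase Shp2, had 17.9 in WT and 16.6 in KO. Sirpa, a receptor of myeloid cells to which Shp2 binds, was the 1 of the 12 past 2-fold lower, near the 8.23% of expressed genes, with 3.23 FPKM in WT and 1.46 in KO, 2.22-fold lower in KO (95% interval 1.94 to 2.54). It was no longer past it with equal upper quartiles or centring. Most macrophage markers were lower in KO too, as given above, and their part in the Sirpa value was not tested. Bcl6, which competes with Stat5 at its sites in liver, had 6.42 FPKM in WT and 3.42 FPKM in KO. Jak2 had 3.42 in WT and 2.66 in KO, and Stat5a, the relative of Stat5b, had 3.33 in WT and 2.96 in KO. Stat5a and Stat5b lie 8626 bases apart and are close in sequence, so their split of reads is uncertain.

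Of 16 other genes of the IGF system, 8 passed the filter, with a median log2 KO/WT of -0.18 that centring turned to 0.05. Igfbp7 had 43.8 FPKM in WT and 28.8 in KO, 1.52-fold lower in KO (95% interval 1.43 to 1.61). Grb14, an adaptor that inhibits the insulin receptor, had 34.8 in WT and 24.4 in KO. Shc1, an adaptor that links the receptors to Ras, had 32.1 in WT and 25.6 in KO, in a row that also names Pygo2. Igfbp5, which stellate cells and fibroblasts express, was the 1 of the 8 past 2-fold lower, where 8.23% of expressed genes were, with 1.69 FPKM in WT and 0.544 FPKM in KO, 3.10-fold lower in KO (95% interval 2.63 to 3.69), though not with a pseudocount of 1 FPKM. It is the neighbour of Igfbp2 on chromosome 1, 5457 bases away with facing 3' ends, an arrangement like that of Igfbp1 and Igfbp3. Igfbp6 was under the filter, at 1.14 FPKM in WT and 0.424 in KO. The substrates Irs1 and Irs2 had FPKM of 1.78 and 2.67 in WT and of 1.93 and 3.76 in KO.

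The stellate cell and fibroblast markers Col1a1 and Acta2, given because they stood farthest from the rest of their list, had FPKM of 8.56 and 5.57 in WT and of 1.75 and 1.26 in KO. What part such cells have in the values of Igfbp5 and Igfbp7 was not tested.

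Pulsed GH in male mice, through Stat5b, maintains a male pattern of liver genes, and such genes were set beside the axis. Neither GH pulses nor the activity of Stat5b were measured here. Of 16 male-biased genes 15 had an estimate and passed the filter, and Mup7, which shares a row with Mup2, did not. The log2 KO/WT of the 15 had a median of -0.14, beside -0.24 for all genes, and centring turned it to 0.10. Lower in KO past 2-fold were 4 of the 15, against 8.23% of expressed genes, and 2 were higher past 2-fold, against 1.71%. After centring 3 were lower, against 5.8% of the genes then past the filter, and 3 higher, against 2.67%. Selenbp2, a selenium-binding protein, had 239 FPKM in WT and 26.0 in KO, 9.19-fold lower. Mup20, the male pheromone darcin of urine, had 3221 in WT and 370.3 in KO, 8.70-fold lower. Gstp1, a glutathione transferase, and Nudt7, a coenzyme A diphosphatase of peroxisomes, were 2.75-fold and 2.24-fold lower, at 3734 and 217 FPKM in WT and 1355 and 97.3 FPKM in KO.

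In contrast, Elovl3, a fatty acid elongase, had 41.5 FPKM in WT and 217 FPKM in KO, 5.22-fold higher in KO. Cyp4a12a, a fatty acid hydroxylase, had 48.5 in WT and 123 in KO, 2.53-fold higher, while its paralog Cyp4a12b had 34.3 and 31.2. Mup3, another urinary protein, had 3022 in WT and 3322 in KO, and Serpina1e, a protease inhibitor, had 2761 in WT and 5493 in KO. Male-biased genes thus stood on both sides of the median gene. Mup, Serpina1, Gstp, Selenbp and Cyp4a12 genes have close paralogs, so the way reads were shared among them is uncertain.

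Of 14 female-biased genes, which pulsed GH represses, 3 passed the filter, and the others averaged under 1 FPKM. Cyp2b9, a cytochrome P450, was listed at 0 in WT and at 0.523 FPKM in KO, and Hao2 was listed at 0 in both. Cyp17a1, a steroid hydroxylase, had 10.3 FPKM in WT and 15.7 in KO. Acot3, a thioesterase of peroxisomes, had 1.28 in WT and 2.40 in KO, and Cyp3a44, a cytochrome P450, had 2.83 in WT and 1.59 in KO. None of the 3 was past 2-fold as deposited, and 1 was past it in the direction of higher in KO after centring, where 2.67% of the genes past the filter were.

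FoxO1 drives Igfbp1 when insulin is low, and other targets of FoxO1 were set beside it. Of the 5 targets listed, Pdk4, the kinase that shuts off pyruvate dehydrogenase, was the 1 past 2-fold higher, where 1.71% of expressed genes were, with 1.99 FPKM in WT and 5.14 FPKM in KO, 2.58-fold higher in KO (95% interval 2.30 to 2.91). G6pc, the enzyme that releases glucose, had 55.3 FPKM in WT and 109 in KO, 1.97-fold higher (95% interval 1.92 to 2.03), and passed 2-fold under each other scaling. Pck1, the first enzyme of gluconeogenesis, had 852 in WT and 818 in KO. Foxo1 itself had 9.19 FPKM in WT and 6.13 FPKM in KO, a KO/WT ratio of 0.667, and Foxo3 had 9.38 in WT and 5.19 in KO. Over the 7 genes, targets and factors together, the median log2 KO/WT was -0.06, with 3 higher and 4 lower in KO, and centring turned it to 0.18. Irs2, another of the 5 targets, had 2.67 FPKM in WT and 3.76 in KO, 1.41-fold higher in KO (95% interval 1.27 to 1.57). Ppargc1a, a coactivator gene and also a listed target, had 2.83 FPKM in WT and 1.97 in KO. Pdk4, G6pc and Irs2 were the 3 higher genes, and the factors Foxo1 and Foxo3 were among the 4 lower. A part of FoxO1 in the values of Igfbp1 was not tested.

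**Figure D5:**
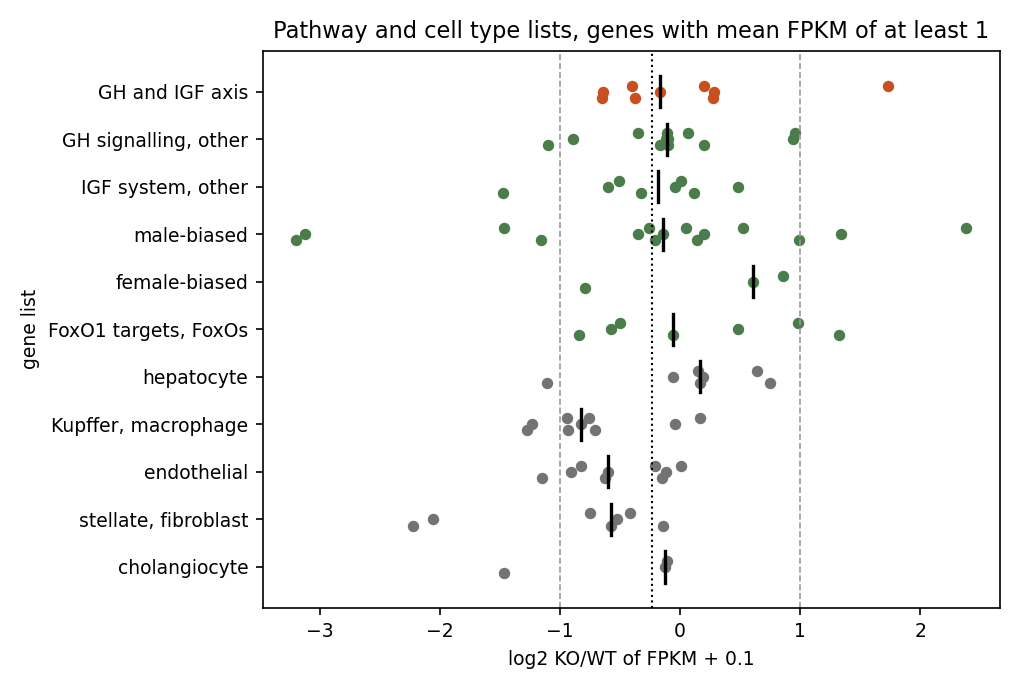
Log2 KO/WT of FPKM + 0.1 for each expressed gene in the axis set (top), 5 related pathway lists and 5 cell type marker lists, with 1 library per genotype; short bars are list medians, dashed lines mark 2-fold and the dotted line is the median gene at -0.24. Male-biased genes spread from -3.20 to 2.38, and the Kupffer, endothelial and stellate lists have medians of -0.82, -0.60 and -0.57.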

How the data were processed

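Hepatic RNA of 1 WT and 1 KO mouse or pool was sequenced, and whether a library was pooled is not stated in the sources used here. Per the paper's methods and the submitters' processing notes, the authors aligned the reads with TopHat2 2.0.0 to NCBI37 (mm9), assembled transcripts with Cufflinks 1.3.0 and estimated FPKM per locus with Cuffdiff. The series description names paired end reads and the methods single end reads. The authors' deposited FPKM were used as given, and the kit does not mark strand. The columns of the authors' own comparison (fold change, statistic, p-value and q-value) were not used, and no replicates allowed a test.

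Of 38016 loci, 21 marked HIDATA were left out as failed estimates, and 2302 without a symbol entered no count of genes. Rows of a symbol were summed, and a locus naming several symbols (850 loci) counted in full for each of them. Log2 ratios used a pseudocount of 0.1 FPKM, which understates differences of low genes, and printed folds are ratios of FPKM without it. With 1 library per genotype, past 2-fold means on that log2 scale among genes averaging 1 FPKM or more. Fragments were estimated from 3141 single-exon genes of at least 500 nt in GENCODE vM1 (NCBIM37), where 174 low values in WT and 167 in KO gave the depth. Coordinates are counted from 1. Tables were handled in pandas 2.3.3 and numpy 2.4.6 under Python 3.11.15, intervals came from scipy 1.17.1 and figures from matplotlib 3.10.9. The depth estimate, the fold calls and the counting intervals were tested on simulated libraries. There the intervals used the same transcript lengths from which the counts were drawn, so the choice of length was not tested.

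The axis genes and all lists were chosen with earlier results of these data known. Named were all 10 axis genes and, of each pathway list, the 3 with the highest mean FPKM and those past 2-fold. Other genes of the lists, among them Cish, Bcl6, Jak2, Stat5a, Insr, Igf2, Igfbp6, Irs1, Irs2, Cyp4a12b, Foxo3, Ppargc1a, Cyp2b9, Hao2, Clec4f, Tek, Hnf4a, Ttr, Cps1, Col1a1 and Acta2, were chosen after their values were seen. Cholangiocyte markers were listed too, and all 3 of 6 that passed the filter had a lower level in KO, 1 of them below the median gene (median log2 difference -0.13, sums of 29.8 FPKM in WT and 25.7 in KO).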

Additional observations from a re-analysis of the deposited data

How the results depend on the processing

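No paired analysis was possible because each genotype has 1 library and nothing pairs them, and no library could be left out. Igfbp1 was the only one of the axis genes past 2-fold higher in KO, and none was past it lower, under each other pseudocount (0.01 and 1 FPKM), filter, scaling and handling of rows tried, while at 1.5-fold 2 were lower. Igf1 changed sign with equal upper quartiles and with centring, and the other 9 axis genes kept their direction in the 7 alternatives run for each. Over all genes, 201 were past 2-fold higher and 965 lower. The counts were 468 and 2235 at 1.5-fold, 64 and 446 at 3-fold, 122 and 397 among genes averaging 5 FPKM or more, and 384 and 1676 with no filter. Centring gave 317 higher and 688 lower, and it brought the median log2 KO/WT of all genes from -0.24 to -0.0040, as equal upper quartiles brought it to -0.037. Each of these moves follows from how the alternative is built. Centring multiplied the KO values by 1.18, equal upper quartiles by 1.15 and equal sums by 1.02. Sirpa was not past 2-fold with a pseudocount of 1 FPKM, with equal upper quartiles or with centring. Equal upper quartiles gave 301 genes higher (2.54%) and 720 lower (6.09%), and in GH receptor signalling 2 higher and 0 lower. Depth limits Igf1r, whose interval includes 1.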
